A study of Mus musculus with 4 samples.

Results

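Among 29924 gene names on the array, 6 belong to transcription factors of the basic helix-loop-helix (bHLH) class whose symbols carry the letters TCF: Tcf3, Tcf4, Tcf12, Tcf15, Tcf21 and Tcf24. All probes with one of these gene names were taken, which gave 10 of 39429 gene probes, and all 6 genes were among the 22455 genes bright enough to be tested. The values come from ureters of wildtype NMRI mouse embryos at E12.5, explanted onto membranes and kept in medium for 18 h. The treated group received IWP-2 at 10 µM and the control group DMSO at 2 parts in 1000. IWP-2 inhibits Porcupine, the acyltransferase that WNT ligands need for secretion, and it was added to the medium of the whole explant. On each of 4 two-colour arrays, a treated pool (1 per array) shared the hybridisation with a control pool (1 per array), with the treated RNA in the red channel on arrays 1 and 3 and in the green channel on arrays 2 and 4. The sex of the embryos was not determined, and whole ureters with epithelium, mesenchyme and blood vessels were used. Pools that each held several embryos are the replicates, so that the errors below describe pools and not single embryos.

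E proteins are broadly expressed bHLH factors that bind the E-box, a short palindromic DNA motif, as dimers with themselves or with a tissue-restricted bHLH partner. Tcf3 (also called E2A), Tcf4 (E2-2) and Tcf12 (HEB) encode the mammalian E proteins, while Tcf15 (paraxis), Tcf21 (capsulin, epicardin or Pod1) and Tcf24 encode tissue-restricted members of the same class. ID proteins carry the dimerization domain but no DNA-binding region, and therefore take E proteins out of DNA-binding dimers. The nuclear effectors of WNT signaling, Tcf7, Lef1, Tcf7l1 and Tcf7l2, share the name TCF but belong to another family with an HMG box as DNA-binding domain, and the older literature used the names Tcf3 and Tcf4 for Tcf7l1 and Tcf7l2. The transcript assigned to each of the 10 probes was therefore looked up in the RefSeq gene table. All 10 belonged to the bHLH gene of that name and lay on the same chromosome as that gene.

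Both probes of Tcf12 and both of Tcf24, and the single probe of Tcf21, carry the largest differences among the 6 genes, and their first 30 of 60 bases are shown so that the measured transcript can be identified. The lines give the probe sequence as deposited in the array design, from its 5′ end, with no part marked.
Tcf12, brighter probe: atttacaatagcattttaagagcatagtag
Tcf12, dimmer probe: gtggtgtacaaaatcagtctggaagtgttg
Tcf21, single probe: ttatggtggccggcaaaccagagaatgacc
Tcf24, brighter probe: tcgcacagacatgatcaggccagatgtgaa
Tcf24, dimmer probe: tttctgaaacattctgtctctggagaaaag
Positions below are those of the array files on the mm9 build. The brighter Tcf12 probe lies at chr9:71692310-71692369 and the dimmer one at chr9:71692059-71692086, both on the minus strand. The second interval spans fewer positions than the probe has bases. The Tcf21 probe lies at chr10:22537563-22537622 on the minus strand, and the Tcf24 probes lie at chr1:9951005-9951064 and chr1:9953498-9953557 on the minus strand. No annotation of this build was used, so that no exon or UTR was assigned. The brighter probe stands for a gene, and brightness differs between probes for reasons other than transcript amount, so that levels are compared only within a probe.

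The 250 bases upstream of annotated start sites were searched for the E-box and for the core that HMG-box TCF/LEF factors prefer, because the first is the motif of the 6 factors themselves and the second that of the WNT effectors. The RefSeq promoter table (GRCm38.p6) held Tcf12, Tcf21 and Tcf3. The E-box was read as CANNTG, which is its own reverse complement, and the TCF/LEF core as CTTTGA or CTTTGT on both strands. Capitals mark both motifs in the lines, which run 5′ to 3′ on the minus strand in every case.
Tcf12, first start site, chr9:72111820-72112069: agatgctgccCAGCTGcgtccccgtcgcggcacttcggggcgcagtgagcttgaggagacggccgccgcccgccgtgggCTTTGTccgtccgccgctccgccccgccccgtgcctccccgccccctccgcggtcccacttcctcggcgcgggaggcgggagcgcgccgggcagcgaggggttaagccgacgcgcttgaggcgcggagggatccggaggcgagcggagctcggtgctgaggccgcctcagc
Tcf12, further start site, chr9:71896097-71896346: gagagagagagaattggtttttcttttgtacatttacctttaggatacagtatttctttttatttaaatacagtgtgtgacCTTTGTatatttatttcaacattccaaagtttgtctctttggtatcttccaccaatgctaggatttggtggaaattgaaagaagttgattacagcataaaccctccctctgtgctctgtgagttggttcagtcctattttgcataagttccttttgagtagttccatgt
Tcf21, chr10:22820144-22820393: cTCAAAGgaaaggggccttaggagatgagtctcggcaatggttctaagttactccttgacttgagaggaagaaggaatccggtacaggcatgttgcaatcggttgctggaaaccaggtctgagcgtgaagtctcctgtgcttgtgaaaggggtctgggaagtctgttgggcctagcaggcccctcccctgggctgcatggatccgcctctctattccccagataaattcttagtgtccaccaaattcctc
Tcf3, chr10:80433636-80433885: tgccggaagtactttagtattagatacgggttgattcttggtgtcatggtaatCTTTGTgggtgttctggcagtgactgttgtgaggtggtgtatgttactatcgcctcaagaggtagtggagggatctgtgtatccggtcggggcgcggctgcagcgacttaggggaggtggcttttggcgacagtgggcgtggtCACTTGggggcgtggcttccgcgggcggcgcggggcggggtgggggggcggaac
The window of the first Tcf12 start site held 1 E-box, of the form CAGCTG, and 1 TCF/LEF core. The window at the further Tcf12 start site and that of Tcf21 each held 1 TCF/LEF core and 0 E-boxes. Another Tcf12 window in the table, at chr9:72111202-72111451, lies downstream of the first start site and is not printed. It held 1 E-box (CAAGTG) and 0 TCF/LEF cores. The Tcf3 window, which belongs to a gene with a ratio near 1, held 1 E-box and 1 TCF/LEF core. Of 32851 promoter windows of this length, 66.2% held an E-box, 13% held CAGCTG and 27.6% held a TCF/LEF core. These matches describe letters in a window and not binding.

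The 6 genes differed widely in their response to IWP-2. Tcf12 and Tcf21 were lower in treated than in control ureters, Tcf24 was higher, and Tcf3, Tcf4 and Tcf15 lay within 0.18 of 0 on the log2 scale. In a limma fit over all 22455 genes with Benjamini-Hochberg adjustment, 4 of the 6 were past an adjusted p of 0.05, against 33.1% of all genes. Of these, 2 were lower (Tcf12 and Tcf21), against 15% of all genes, and 2 were higher (Tcf4 and Tcf24), against 18.1% of all genes. The genes were selected by name and with their IWP-2 over control ratios on these same arrays known, so that these counts are a description and no p is given for any of them. Below, a log2 ratio is that of IWP-2 over control, its error is the SD over 4 arrays, and a level is a normalised linear intensity.

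**Figure D1:**
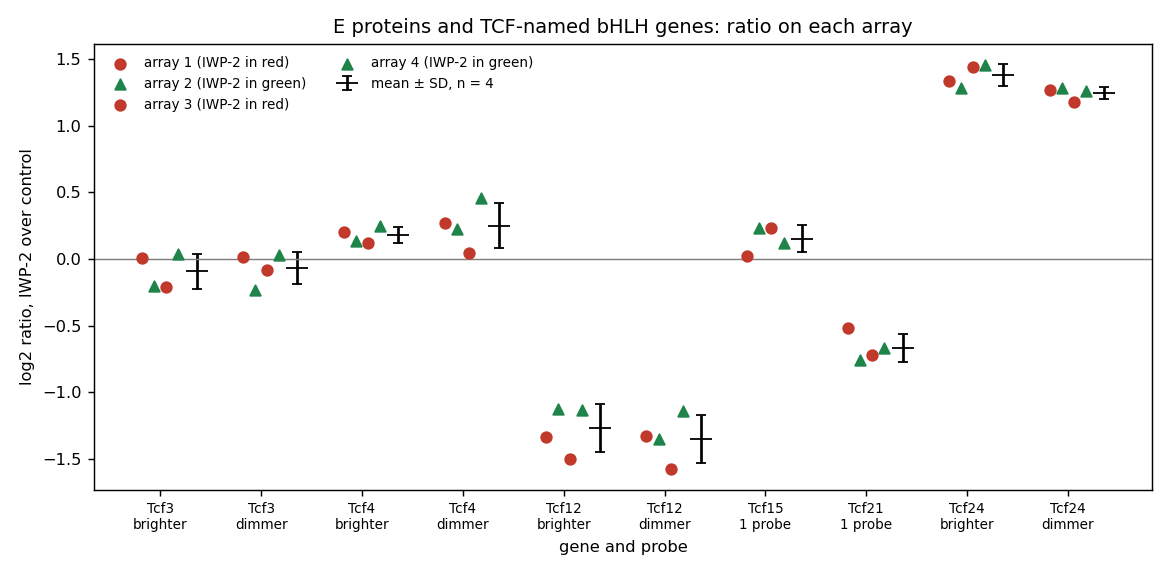
Log2 ratio of IWP-2 over control (vertical axis) for each of the 10 probes of the 6 genes (horizontal axis), with 1 point per array, circles for treated RNA in red and triangles for treated RNA in green, and the mean with SD (n = 4) beside them. Both Tcf12 probes lie between -1.58 and -1.12 and both Tcf24 probes between 1.18 and 1.45 on all arrays, whereas both Tcf3 probes scatter around 0.

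Tcf12 encodes HEB, an E protein known for its work with myogenic and lymphoid bHLH partners and in mesoderm. At its brighter probe the control channels read 76180, 64481, 76259 and 76092 on arrays 1 to 4. The treated channels of the same arrays read 30218, 29611, 26970 and 34736. Each treated level was below every control level, with no overlap between the groups. The log2 ratios were -1.33, -1.12, -1.50 and -1.13, with a mean of -1.27 ± 0.18 (SD, n = 4), so that treated ureters held 41.4% of the control level and the fall amounted to 2.41-fold.

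The dimmer Tcf12 probe ran the same way. Its control levels lay between 29652 and 36900 and its treated levels between 11521 and 14669, again without overlap. The log2 ratios of -1.33, -1.35, -1.58 and -1.14 had a mean of -1.35 ± 0.18 (SD, n = 4). Array by array, the dimmer probe differed from the brighter one by -0.08 ± 0.11 (SD, n = 4), which is less than the spread between arrays. Tcf12 held rank 95 from the lowest ratio among the 22455 genes tested.

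The Tcf12 ratio was larger in size when the treated RNA was red. The mean at the brighter probe was -1.42 for arrays 1 and 3 and -1.13 for arrays 2 and 4. The dye term of the same limma fit, which is independent of the treatment term in this balanced design, was -0.14, with an unadjusted p of 0.0152 and an adjusted p of 0.185. For the other 5 genes the dye term lay between -0.02 and 0.05, with the lowest adjusted p at 0.621 (limma). Over all genes, limma called 0 for the dye at an adjusted p of 0.05, and 4233 (18.9%) had an unadjusted dye p under 0.05. Tcf12 was thus lower in both dye orders, and no dye effect on it could be called.

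Tcf21 encodes a tissue-restricted bHLH factor of visceral mesenchyme that is known from kidney, lung and epicardium. Its single probe read 44405, 42007, 43335 and 36315 in the control channels of arrays 1 to 4. The treated channels read 30983, 24768, 26301 and 22863. All treated levels were below all control levels. The log2 ratios of -0.52, -0.76, -0.72 and -0.67 had a mean of -0.67 ± 0.11 (SD, n = 4), which left 63.0% of the control level, a fall of 1.59-fold. Array 1 gave the ratio nearest to 0, yet each of the 4 arrays showed the lower value in the treated channel. Tcf21 held rank 332 from the lowest ratio. In these bulk samples, fewer cells of a type that holds a transcript and less RNA of it per cell cannot be told apart.

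Tcf21 also marks podocyte precursors and mesenchymal cells, whose markers were read on the same arrays. Of 4 podocyte markers reported, limma (adjusted p under 0.05) placed 1 lower (Ptpro, log2 ratio -0.40 ± 0.18) and 1 higher (Synpo, 0.30 ± 0.12), while Podxl (0.13 ± 0.47) and Nphs1 were not past the threshold. For all genes the shares were 15% lower and 18.1% higher. Nphs1, which encodes the slit diaphragm protein nephrin, lay between 101 and 121 in all 8 channels and had a log2 ratio of 0.07 ± 0.12. The summed level of the 4 podocyte markers was 4153 to 5059 in control and 4855 to 5794 in treated channels, and these ranges overlapped. Of 7 markers of ureteric mesenchyme, 1 was lower (Tbx18, -0.74 ± 0.26), 1 was higher (Pdgfrb, 0.80 ± 0.07) and 5 were not past the threshold, with summed levels of 474676 to 527715 in control and 502171 to 569496 in treated channels. The collagen genes Col1a1, Col1a2 and Col3a1 and the filament gene Vim were among those 5. The sums, here and for the lists below, are carried by the brightest probes of each list. The part of cell composition in the Tcf21 value was not tested.

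Tcf24 encodes a bHLH factor of the same subgroup as Tcf21. At its brighter probe the control levels were 529, 454, 464 and 516 on arrays 1 to 4. The treated levels were 1333, 1103, 1258 and 1413. Each treated level was above every control level. The log2 ratios of 1.33, 1.28, 1.44 and 1.45 had a mean of 1.38 ± 0.08 (SD, n = 4), which is 2.60-fold. Tcf24 held rank 9 from the highest ratio among the 22455 genes.

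At the dimmer Tcf24 probe the control levels were 186 to 219 and the treated levels 452 to 518. The groups did not overlap, and the log2 ratios of 1.27, 1.28, 1.18 and 1.26 had a mean of 1.24 ± 0.05 (SD, n = 4), a 2.37-fold higher level. The dimmer probe gave a ratio smaller by 0.13 ± 0.12 (SD, n = 4). Both probes were well above background in both channels of all 4 arrays, so that the control level was measured and not only bounded. The background correction adds an offset of 50, which draws the ratio of a dim probe towards 0. With an offset of 16 the Tcf24 log2 ratio was 1.44, with the scanner's own processed signals it was 1.54, and with the deposited table of fold changes it was 1.53. The processed signals differ from the main setting in more than the offset, and the normalisation of the deposited table is not given. The part of the offset in these values was not tested.

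**Figure D2:**
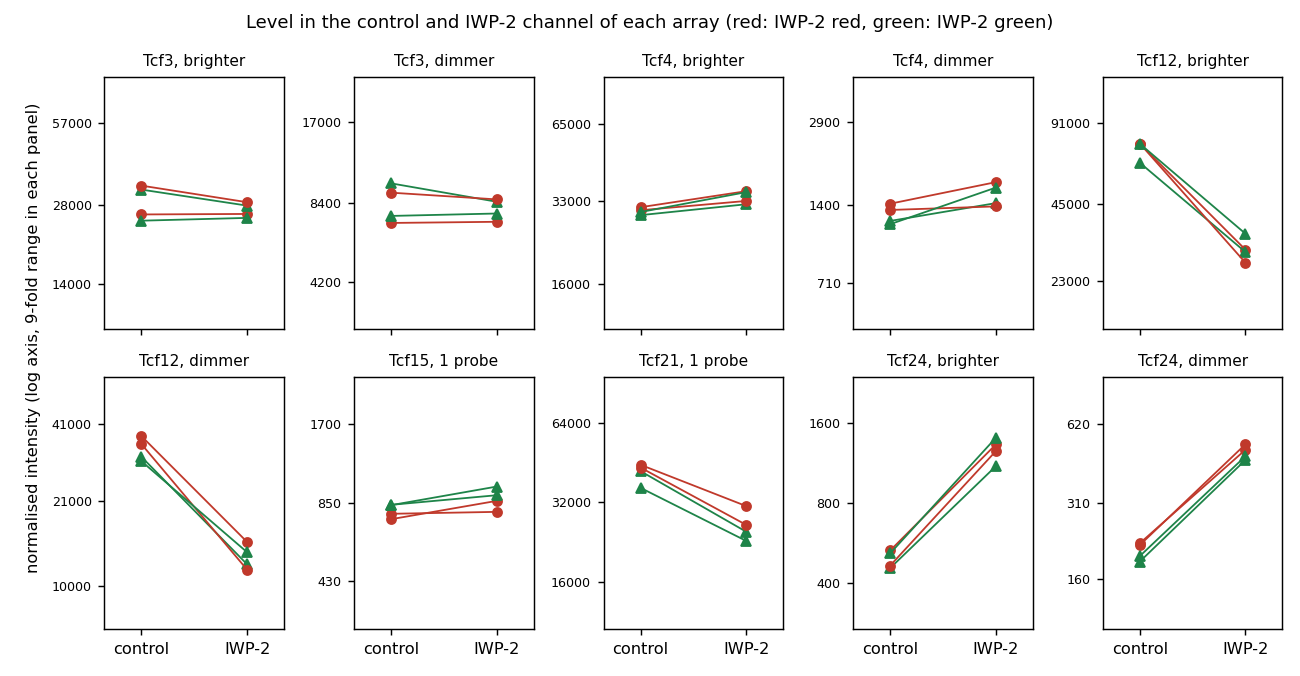
Normalised intensity (log axis with a 9-fold range in each panel) in the control and the IWP-2 channel, with 1 line per array and 1 panel per probe, red circles for treated RNA in red and green triangles for treated RNA in green. All 4 lines fall for Tcf12 and Tcf21, all 4 rise for Tcf24, and the Tcf3 lines run nearly level.

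Tcf4 encodes the E protein E2-2, known for plasmacytoid dendritic cells, brain and endothelium. The brighter of its 2 probes, at chr18:69842843-69842902 on the plus strand, read 31373, 29278, 30555 and 30083 in control and 36080, 32189, 33133 and 35777 in treated channels. The groups did not overlap, although the lowest treated level lay close to the highest control level. The log2 ratios of 0.20, 0.14, 0.12 and 0.25 had a mean of 0.18 ± 0.06 (SD, n = 4), a 1.13-fold difference. At the dimmer probe, at chr18:69847562-69847621, control levels of 1189 to 1421 overlapped treated levels of 1388 to 1716. The log2 ratios there were 0.27, 0.22, 0.04 and 0.46, with a mean of 0.25 ± 0.17 (SD, n = 4). Tcf4 was past the threshold in 9 of 14 alternative settings and not in the remaining 5, which were median centring (0.12), the deposited table of fold changes (0.17), the 8 channels taken as separate samples (0.18), and the fits without array 1 (0.16) and without array 4 (0.15).

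Endothelial markers were read on the same arrays. Of 6, limma placed 4 higher, against 18.1% of all genes. These were Cldn5 (0.37 ± 0.12), Cdh5 (0.26 ± 0.17), Pecam1 (0.22 ± 0.11) and Kdr (0.15 ± 0.10). Tek (0.03 ± 0.11) and Emcn (0.12 ± 0.10) were not past the threshold. The summed level of the 6 genes was 51962 to 60461 in control and 59534 to 69841 in treated channels, and these ranges overlapped. The part of endothelial content in the Tcf4 value was not tested.

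Tcf3 encodes E12 and E47, the E proteins first found at immunoglobulin enhancers. Its brighter probe, at chr10:79872639-79872698 on the minus strand, read 25722, 31943, 33071 and 24361 in control and 25834, 27780, 28617 and 24960 in treated channels. The ranges overlapped, and the ratio was above 1 on arrays 1 and 4 and below 1 on arrays 2 and 3. The log2 ratios of 0.01, -0.20, -0.21 and 0.04 had a mean of -0.09 ± 0.13 (SD, n = 4). The dimmer probe, at chr10:79875963-79876022, gave 0.01, -0.23, -0.08 and 0.03, with a mean of -0.07 ± 0.12 (SD, n = 4). Tcf3 was past the threshold in 0 of 14 alternative settings.

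Tcf15 encodes paraxis, a bHLH factor of somites and, in some vascular beds, endothelial cells. Its single probe, at chr2:151974683-151974742 on the plus strand, read 775, 836, 739 and 838 in control and 788, 983, 868 and 911 in treated channels. The treated level was higher on each array, but the ranges overlapped. The log2 ratios of 0.02, 0.23, 0.23 and 0.12 had a mean of 0.15 ± 0.10 (SD, n = 4). Tcf15 was past the threshold in 1 of 14 alternative settings, the one without array 1, where the log2 ratio was 0.20. Among 6 markers of paraxial mesoderm, Meox1 (0.39 ± 0.21), Meox2 (0.48 ± 0.17), Tbx6 (0.27 ± 0.08) and Pax9 (0.21 ± 0.10) were higher by limma, against 18.1% of all genes, and Pax1 and Uncx were not well above background. Pax9 was dim, with levels of 83 to 112 in control and 102 to 125 in treated channels, and these ranges overlapped. The 4 measured genes summed to 1143 to 1341 in control and 1564 to 1606 in treated channels. Their part in the Tcf15 value was not tested.

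Markers of other cells in the explant moved too. All 7 epithelial markers were higher by limma, with log2 ratios of 0.24 to 0.34 and summed levels of 179906 to 195169 in control and 205264 to 255388 in treated channels. Of 6 blood markers 4 were higher, of 5 nephron progenitor markers 4 were higher (up to 1.14 ± 0.27 for Six2) and 1 was lower (Crym, -0.96 ± 0.45), and of 4 neural crest markers 2 were higher. The counts of this paragraph stand against 18.1% higher and 15% lower among all genes. None of these lists holds one of the 6 genes. Their part in the values of the 6 genes was not tested. The median log2 ratio of all genes tested was 0.0010, and the median SD between arrays was 0.11.

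**Figure D3:**
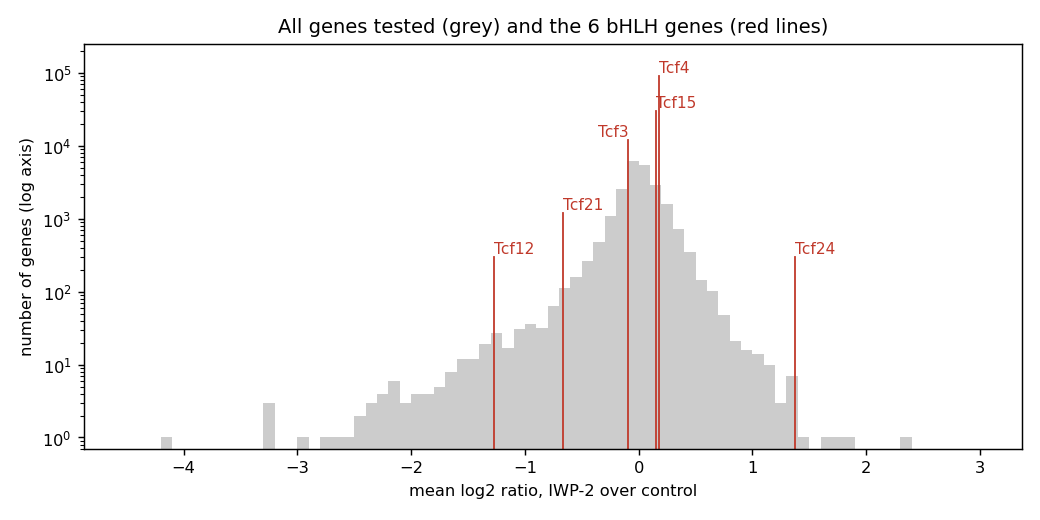
Number of genes (log axis) by mean log2 ratio of IWP-2 over control for the 22455 genes tested (grey), with red lines at the ratios of the 6 genes. Tcf12 at -1.27 and Tcf21 at -0.67 lie in the lower tail, Tcf24 at 1.38 lies near the upper end, and Tcf3, Tcf15 and Tcf4 lie in the bulk of the genes.

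The dimerization partners and inhibitors of E proteins were read on the same arrays. All 4 ID genes were lower by limma, against 15% of all genes. Id4 had a log2 ratio of -1.48 ± 0.10 (adjusted p = 8.22e-06), with levels of 35469 to 44696 in control and 13365 to 15191 in treated channels. Id2 had -0.87 ± 0.05 (adjusted p = 4.93e-05), Id3 -0.49 ± 0.11 (adjusted p = 0.00106) and Id1 -0.46 ± 0.09 (adjusted p = 8.36e-04). The groups did not overlap for any of the 4 genes, and the share of all genes without overlap was not counted. The median of the list was -0.68, beside 0.0010 for all genes. The ID genes thus moved in the direction of Tcf12 and opposite to Tcf24, and the summed ID level was 228410 to 254340 in control and 135347 to 151349 in treated channels. Its largest parts came from the probes of Id2 (91819 to 112485 in control) and Id3 (81002 to 101640 in control). The call of Id3 was lost in the deposited table of fold changes.

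Among 14 mesodermal bHLH partners, 8 were bright enough to be tested, of which 2 were lower, 4 were higher and 2 were not past the threshold. These counts stand against 15% lower and 18.1% higher among all genes. Twist1, a regulator of mesenchyme that pairs with E proteins, was higher at 0.85 ± 0.08 (adjusted p = 4.55e-05), and Scx, the factor of tendon progenitors, at 0.75 ± 0.19 (adjusted p = 6.97e-04). Hand2 (0.27 ± 0.17) and Twist2 (0.20 ± 0.11) were higher and Hand1 (-0.39 ± 0.33) and Myf6 (-0.16 ± 0.06) lower, and each of these 4 calls was lost in at least 3 alternative settings. Without array 1 the log2 ratio of Hand2 was 0.18 and that of Twist2 was 0.14, both not past the threshold. Twist2 was not past it without array 2 either (0.18), and Myf6 was not past it without any 1 of the 4 arrays (-0.18 to -0.14). Without array 3 or 4 the Hand1 value was -0.22 or -0.32, also not past it. Mesp2 and Myod1 were not past the threshold, and Msc, Tcf23, Mesp1, Msgn1, Myf5 and Myog were not well above background. The median of the 8 genes was 0.10.

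Of 27 other tissue-restricted bHLH genes, 15 were tested. Bhlhe22, a repressor known from neurons, was higher at 1.34 ± 0.14 (adjusted p = 2.41e-05), close to the Tcf24 ratio in the main fit. It was dim in control, at 155 to 249, and its ratio lay between 1.30 and 1.88 in the alternative settings. Atoh7 (0.34 ± 0.10), Tal1 (0.26 ± 0.14) and Lyl1 (0.15 ± 0.15) were higher as well. The Lyl1 call was lost in 7 of 14 alternative settings, among them those without array 1, 2 or 3 (0.11 to 0.16). The Tal1 call was lost in 3 of 14, namely without array 1 (0.21), without array 2 (0.20) and in the deposited fold changes, and the Atoh7 call in 1 of 13, the deposited fold changes. Atoh8 was lower at -0.70 ± 0.25 (adjusted p = 9.28e-04), and the other 10 were not past the threshold. The median of the list was 0.04, and 4 of the 15 were higher and 1 lower, against 18.1% and 15% of all genes. The 12 genes not tested, all of them below the background criterion, were Neurog1, Neurog2, Neurod1, Neurod4, Neurod6, Olig1, Olig2, Olig3, Bhlhe23, Ptf1a, Ferd3l and Figla.

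All 12 genes of proteins that bind E proteins or their complexes were tested, with 3 higher, 9 not past the threshold and a median of 0.01. Over all genes the share higher was 18.1% and the share lower 15%. Lmo1, a LIM-only bridging factor, was higher at 1.21 ± 0.16 (adjusted p = 3.52e-05). Runx1t1 (0.70 ± 0.11, adjusted p = 1.15e-04) and Cbfa2t3 (0.53 ± 0.11, adjusted p = 7.89e-04) encode ETO-family corepressors that bind an activation domain of E proteins, and both were higher. The third ETO gene, Cbfa2t2, had 0.03 ± 0.05. The coactivators Ep300, Crebbp, Kat2a and Kat2b and the LIM adaptors Ldb1, Ldb2, Lmo2 and Lmo4 were not past the threshold.

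Factors that bind E-boxes without E proteins formed a list of 7 genes, of which 6 were tested, with 3 lower, 1 higher and a median of -0.09. Among all genes, 15% were lower and 18.1% higher. Snai1 was lower at -1.21 ± 0.35 (adjusted p = 6.04e-04), Zeb2 at -0.53 ± 0.26 (adjusted p = 6.33e-04) and Snai2 at -0.20 ± 0.24 (adjusted p = 0.0108). Snai1, Snai2 and Zeb2 encode zinc finger repressors. Snai2 was lower on 3 of 4 arrays only, and its call was lost in 3 of 14 alternative settings. The Snai1 call was lost in 1 of 14, the deposited table of fold changes. Bhlhe41, a bHLH repressor, was higher at 0.30 ± 0.11, a call lost in 2 of 13 alternative settings. Zeb1 and Bhlhe40 were not past the threshold, and Snai3 was not well above background.

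Of the 4 HMG-box genes that share the TCF name, 2 were lower, against 15% of all genes, and 2 were not past the threshold. Lef1 (-1.47 ± 0.16, adjusted p = 1.22e-05) and Tcf7 (-1.31 ± 0.05, adjusted p = 1.58e-05) were lower by limma. Tcf7l1 (0.17 ± 0.20, adjusted p = 0.143) and Tcf7l2 (-0.08 ± 0.26, adjusted p = 0.517) were not past the threshold, and Tcf7l1 was past it without array 3, at 0.27. The bHLH genes Tcf3 and Tcf4 had -0.09 and 0.18. The median of the 4 HMG-box genes was -0.69.

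**Figure D4:**
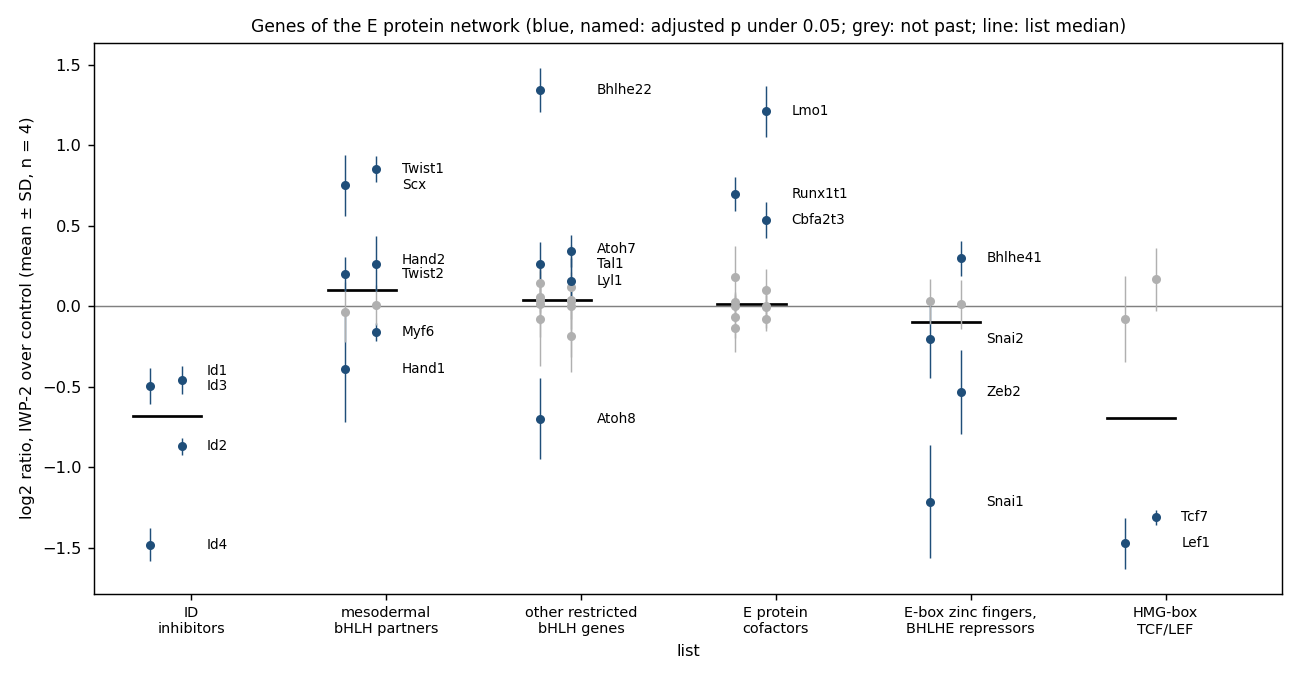
Mean log2 ratio of IWP-2 over control with SD (vertical axis, n = 4) for the tested genes of 6 lists (horizontal axis), with genes past an adjusted limma p of 0.05 in blue with their names, other genes in grey, and a line at each list's median. All 4 ID genes lie below 0, with Id4 lowest at -1.48, and Bhlhe22, Lmo1 and Twist1 lie above 0.8.

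Genes with the most similar pattern over the 8 channel levels (4 control and 4 treated) were taken from 18718 tested genes with a name, by Pearson r on the log2 scale. The channels of an array share a hybridisation and a normalisation, and the r values describe these 8 values only. For Tcf12 they were Lppr5 (r = 0.996), Abcd2 (0.995) and 1190002N15Rik (0.995), with log2 ratios of -1.44, -0.69 and -1.12. For Tcf21 they were Nup62 (0.995), Smyd2 (0.993) and Prickle1 (0.993), with smaller log2 ratios of -0.14, -0.27 and -0.33. For Tcf24 they were 1110032F04Rik (0.994), Asb18 (0.994) and Diras2 (0.989), with 1.39, 0.65 and 0.88. For Tcf4 they were Fam43a (0.979), Plekha2 (0.978) and Gbp6 (0.976), with 0.51, 0.39 and 0.39. For Tcf3 they were Patz1 (0.993), Vps72 (0.980) and Dvl3 (0.977), with -0.09, -0.06 and -0.05. For Tcf15 they were Vmn1r122 (0.974), Olfr329-ps (0.967) and Speer5-ps1 (0.966), with 0.26, 0.23 and 0.31, each past the limma threshold, unlike Tcf15.

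The nearest protein-coding genes on either side of the 6 genes in the RefSeq table were read as well, a choice made after the values were seen. Of 12 such genes, 10 were tested, with log2 ratios of -0.33 to 0.33, of which limma placed 2 lower and 1 higher. The same fit placed 15% of all genes lower and 18.1% higher, so that these counts lie near the shares over all genes. Beside Tcf12, Cgnl1 had -0.25 ± 0.16 (adjusted p = 0.0167) and Zfp280d had -0.11 ± 0.11 (adjusted p = 0.0780). Beside Tcf21, Tbpl1 had -0.33 ± 0.03 (adjusted p = 0.00162) and Eya4 had -0.05 ± 0.22 (adjusted p = 0.453). Beside Tcf24, Ppp1r42 had 0.11 ± 0.14 (adjusted p = 0.112), and Mcmdc2 was not well above background. The third call was Mc2r beside Tcf4, at 0.33 ± 0.23 (adjusted p = 0.00667). None of the tested neighbours of Tcf12, Tcf21 and Tcf24 reached the size of its neighbour's ratio.

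Precision rested on the arrays. Within an array, 3 or 4 spots of each of the 10 probes were used, and the SD of their log2 ratios lay between 0.01 and 0.09. The SD between arrays was 0.05 to 0.18. The median raw intensity of gene spots was 368 to 711 in control and 385 to 694 in treated channels over a local background of 28 to 77, and 0 spots were saturated. Pearson r of the ratios between arrays, across genes, which are not independent replicates, was 0.625 to 0.831. All 4 arrays lay on 1 slide and in 1 scan, so that no batch could be separated.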

How the data were processed

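Cultured mouse ureters were profiled on 4 two-colour Agilent arrays, each with 1 treated and 1 control pool. The authors extracted the spots with Agilent Feature Extraction 10.7.3.1, and the deposited files hold for each spot the raw mean intensity, the median local background intensity, a processed intensity (background-subtracted and dye-normalised per the file headers) and flags. The deposited log10 ratio of red over green was used only to check direction. The authors also deposited a score, a signed fold change per probe and array, with the normalisation not given in the sources used here, which was used only as an alternative.

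Raw intensities were corrected in limma 3.58.1 (R 4.3.3) with normexp (offset 50) and normalised by loess (span 0.3) within the array, and levels were scaled between arrays with Aquantile. Spots flagged as outliers (3.01% to 3.38%) were left out and the 4 spots of a probe averaged. Genes entered the test where more than 0.5 of the spots of the probe passed the scanner's background criterion in one group on all 4 arrays, and the brightest probe stood for a gene. The log2 ratios were fitted with lmFit and eBayes with a dye term, with two-sided p adjusted over 22455 genes (Benjamini-Hochberg, threshold 0.05). The replicate number names an array, which holds both groups, so that the ratio is paired by construction. The number of arrays limits the precision. Where nothing says that pools came from separate cultures, p measures only the spread between these pools. The fit was tested on simulated data.

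The 6 genes and all lists were chosen with earlier results of these data known. All 6 genes, the ID genes and the HMG-box genes are named, and of the 4 other lists each gene past the threshold is named and genes not tested are named without value. For each of the 6 genes the 3 tested named genes with the highest r are given. Other genes with values were chosen after their values were seen, for the roles given beside them. Alternatives were another offset, the processed intensities, median centring, no dye term, flagged spots kept, the mean of all probes, 2 other filters, the deposited fold changes, 8 channels as separate samples, leaving out each array, and arrays of 1 dye order alone. The planned comparison of protein sequences was not run, and some genes of the podocyte marker list are not reported here, so that its counts and sums cover the 4 markers reported.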

Additional observations from a re-analysis of the deposited data

Results flagged for a closer look

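In a group of 4 arrays, an array was singled out where its gap to the nearest other array took up an unusually large share of the range (Dixon's 95% limit). Of 42 sets of ratios looked at, 2 met this, where chance gives about 2.1. None of the 10 probes of the 6 TCF-named bHLH genes was among them. For Hand2 the log2 ratio of IWP-2 over control was 0.53 on array 1 and 0.17 to 0.19 on the other 3 arrays. For Snai1 it was -0.69 on array 1 and -1.43 to -1.33 on the other 3 arrays. Both came from array 1, and both kept their sign on all 4 arrays.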

How the results depend on the processing

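Tcf12 (-1.42 to -1.13), Tcf21 (-0.72 to -0.62) and Tcf24 (1.31 to 1.54) kept their direction in all 16 alternatives and were past the threshold in all 14 that give a test. Tcf24 was at 1.54 with processed signals and 1.53 in the deposited fold changes. Tcf3 lay between -0.15 and -0.03, Tcf4 between 0.12 and 0.21, and Tcf15 between 0.10 and 0.20. Between 3 and 4 of the 6 genes were past the threshold, in alternatives added for this count after seeing the data. Without the pairing, with 8 channels as separate samples and no replicate block, 2040 genes were higher and 2069 lower (4068 and 3360 in the paired fit), and Tcf4 was no longer past the threshold. In the same fit 2 mesodermal partners were higher and 0 lower, and 0 E-box repressors were higher. In the deposited fold changes 1833 genes were higher and 2050 lower. There, 1 cofactor was lower, 0 E-box repressors were higher and 1 lower, 2 mesodermal partners were higher and 0 lower, and 2 other bHLH genes were higher. Leaving out each array in turn gave 2180 to 2813 genes lower, 2 to 4 mesodermal partners higher and 0 to 1 lower, 2 to 5 other bHLH genes higher and 1 to 2 lower, and 0 to 1 HMG-box genes higher. With median centring the ID median was -0.75, 1 cofactor was lower and 1 mesodermal partner was lower. Averaging all probes gave 1 cofactor and 2 other bHLH genes lower, an offset of 16 gave 2 other bHLH genes lower, and processed signals gave 1 mesodermal partner lower. Without a filter the mesodermal median was 0.016, with 1 gene lower. With signals over 100 it was 0.27, with 1 gene lower, while the median of the other bHLH genes was 0.12 and 0 E-box repressors were higher. In arrays 1 and 3 alone that other median was 0.12. The cause of these shifts was not tested. Signal over background limits the dim genes (Pax9, Myf6, Atoh7, Bhlhe22 and Bhlhe41 among those named), whose ratios the offset draws towards 0.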
